A study of Mus musculus with 4 samples.

Results

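The 7 genes described here encode the inhibitors of DNA binding (Id1, Id2, Id3 and Id4) and their E-protein partners (Tcf3, Tcf4 and Tcf12), and were taken by symbol from the 32285 genes counted in each file. Every one of the 7 was found in all 4 files. The cells were muscle stem cells of mice of the MyoD-KI genotype, in which tdTomato, a red fluorescent protein, reports MyoD. After 5 days in serum-containing medium, the MyoD-tdTomato high cells were isolated by sorting, and their RNA was counted as unique molecular identifiers (UMIs) with a 3′ droplet assay. The labels give 1 group with replicates 1 to 4. The number and age of the animals are not given in the sources used here, and cells with low reporter signal were not analysed here.

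E proteins are basic helix-loop-helix (bHLH) transcription factors that pair with tissue-restricted bHLH factors, in muscle with MyoD and myogenin, and bind the E-box CANNTG. Tcf3 encodes E12 and E47, Tcf4 encodes E2-2, and Tcf12 encodes HEB. Id proteins carry the helix-loop-helix but lack the basic region that contacts DNA, so a dimer of an Id with an E protein does not bind, and high Id levels are known to hold back muscle differentiation. Id genes are known targets of bone morphogenetic protein (BMP) signalling through Smad proteins.

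The 4 files held the same cells. Pairs of files shared 5946 to 5965 barcodes, 99.9% of the smaller file, and in 99.7% to 99.9% of cells the profile most like that of a barcode was the same barcode in the second file, not one of 100 others. The files were counted as 1 sample (n = 1), so no test was run and no p-value is given. Of the 5944 barcodes in all files, 5481 had at least 1000 genes and under 10% mitochondrial UMIs and were kept, with a median of 11049 UMIs per file. The files held between 62627341 and 68898900 UMIs. A level is the summed UMIs of a gene in a set of cells scaled to the UMI total of that set (CPM), averaged over the files. Exact 95% Poisson or binomial intervals cover counting error only, and values of single files show how well the count repeats in the same cells.

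The cells carried markers of the muscle lineage, with a summed level of 1863 CPM for Myod1, Myf5, Pax7, Des and Cdh15. All 5 endothelial and all 4 immune markers were under 1 CPM, with Kdr at 0.00404 and Ptprc at 0.0269. Of 5 fibroblast markers only Col3a1 (110.5 CPM) was above 1 CPM. Among 4 pericyte or smooth muscle markers, Notch3 stood at 50.3, Rgs5 at 5.25 and Pdgfrb at 4.59 CPM, and Kcnj8 at 0.0303.

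The 7 genes are all protein-coding and lie on different chromosomes. In GENCODE M21 (GRCm38), Id1 (ENSMUSG00000042745) spans chr2:152736251-152737410, Id2 (ENSMUSG00000020644) chr12:25093799-25097140, Id3 (ENSMUSG00000007872) chr4:136143497-136145755 and Id4 (ENSMUSG00000021379) chr13:48261228-48266026. Tcf3 (ENSMUSG00000020167) spans chr10:80409514-80433647, and Tcf12 (ENSMUSG00000032228) chr9:71842688-72111871. The Id genes are compact, from 1.16 kb for Id1 to 4.80 kb for Id4, whereas Tcf12 spans 269 kb and Tcf4 346 kb. Whether intronic reads were counted is not given in the sources used here, and such reads would add to the long genes most. Levels are therefore compared between states for 1 gene or 1 sum at a time and not between genes. A ratio of Id to E-protein UMIs is given only for its change between states, since its size depends on such reads. Its change would depend on them too if their share differed between states, which was not measured.

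Sequence before the transcript starts annotated in RefSeq is shown because Id genes are known for a GC-rich element bound by BMP Smads, GGCGCC, and E proteins for the E-box. The RefSeq promoter table (GRCm38.p6) held 7 windows for 5 of the 7 members, and the 250 bases before each start were searched. It held none for Id1 or Tcf4, which were not searched. Both motifs, CANNTG and GGCGCC, read the same on both strands, and the matches did not overlap. Some of the matches, in 1 window each of Id2, Id4, Tcf3 and Tcf12, are shown in capitals with up to 12 bases on either side, 5′ to 3′ on the gene's strand.
Id2 E-box (chr12:25096271-25096300, minus strand): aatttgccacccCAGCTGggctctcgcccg
Id2 GC-rich element (chr12:25096306-25096335, minus strand): tcaggccccctgGGCGCCcagcgcacactg
Id4 GC-rich element (chr13:48260956-48260985, plus strand): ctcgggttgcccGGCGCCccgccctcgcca
Tcf3 E-box (chr10:80433672-80433701, minus strand): agtgggcgtggtCACTTGggggcgtggctt
Tcf12 E-box (chr9:72112042-72112069, minus strand): agatgctgccCAGCTGcgtccccgtcgc
Of all 32851 windows of this length in the table, 66.2% held the E-box and 9.59% the GC-rich element. The Id2 window lies inside the GENCODE gene span given above, with 161 of its 250 bases in exons. The Id3 window, wholly in a GENCODE exon (250 of 250 bases), held neither motif, and sequence before the GENCODE start of Id3 was not searched. These are matches of letters in a window, and binding was not measured.

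Over all kept cells Id3 reached 926 CPM, Id1 472, Id2 138 and Id4 7.36. Tcf4 stood at 473 CPM, Tcf12 at 326 and Tcf3 at 31.2. Most of the 7 were found in many cells when every cell was thinned to 5000 UMIs, which left out 284 cells. Id3 was then detected in 91.1% of cells, Id1 in 83.3%, Tcf4 in 81.6%, Tcf12 in 73.6%, Id2 in 40.2% and Tcf3 in 14.2%. Id4 was detected in 3.55% (interval 3.06% to 4.09%). Without thinning the shares ran from 7.64% for Id4 to 96.8% for Id3, so each depends on depth. There was no cell type in these files that should lack these genes, so background from free RNA could not be read. Single detections recurred to very different degrees: of cells with an Id3 UMI in 1 file, 93.5% had one in another given file, against 14.8% for Id4 and 23.1% for Tcf3. These are to be read beside the shares of all cells, 91.1% for Id3, 3.55% for Id4 and 14.2% for Tcf3. Values of Id4 and Tcf3 in single cells thus rest on few molecules. The files may not hold wholly separate molecules, as described below, which may raise the shares that recurred.

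The first comparison asked how the members differ with the onset of differentiation. Myog encodes myogenin, which marks that onset, and cells were grouped by its level as below 400, 400 to 1500, and 1500 CPM or more. To hold division constant, non-cycling cells were those with under 75 CPM of Mki67 plus Top2a, 2 genes of dividing cells, and cycling cells those with at least 150. Non-cycling cells numbered 899, 263 and 1854 in the 3 Myog groups. Within 10% of a Myog bound lay 77 cells (400 CPM) and 134 cells (1500 CPM).

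In non-cycling cells every Id gene was lower at high Myog, and Id3 by the largest margin among the well-counted members. Summed Id transcripts stood at 2130 CPM in cells with Myog below 400 CPM and at 815 CPM in those with 1500 or more, a 2.61-fold difference. Summed E-protein transcripts differed less, with 1040.4 and 709 CPM, a 1.47-fold difference. The ratio of Id to E-protein UMIs was 2.05 in the low Myog group, 1.37 in the middle and 1.15 in the high. Single files gave 2.03 to 2.06 in the low group and 1.13 to 1.16 in the high. The ratio was thus lower at each step, and the order was the same in all 4 files.

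Id3 had 1356, 1366, 1345 and 1363 CPM in replicates 1 to 4 at low Myog. At high Myog it had 410, 402, 414 and 403 CPM. The log2 ratio was -1.73 (interval -1.77 to -1.69), or 3.33-fold lower. In single cells the ranges overlapped. The middle 80% of low Myog cells lay between 657 and 2247 CPM of Id3. For high Myog cells these bounds were 134 and 742.

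Id4, the least counted member, had 12.4, 13.2, 12.6 and 14.5 CPM at low Myog and 2.32, 3.30, 2.31 and 2.83 at high Myog. The log2 ratio was -1.95 (interval -2.28 to -1.58). It rests on means of 110 and 57.75 UMIs per file.

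Id2 had 172, 163, 162 and 165 CPM at low Myog. At high Myog it had 74.5, 74.4, 72.4 and 73.0 CPM, a log2 ratio of -1.16 (interval -1.26 to -1.06). For Id1 the low Myog group had 603, 587, 596 and 587 CPM and the high group 329, 331, 333 and 333, a log2 ratio of -0.84 (interval -0.89 to -0.79). Its difference was the smallest of the Id genes.

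Of the E proteins, Tcf3 had 37.8, 35.7, 33.4 and 33.0 CPM at low Myog and 12.9, 12.8, 12.4 and 13.7 at high Myog. Its log2 ratio of -1.37 (interval -1.60 to -1.15) lay among those of the Id genes. Tcf4 (ENSMUSG00000053477, chr18:69343356-69689079) had 642, 651, 647 and 638 CPM at low Myog and 386, 392, 390 and 381 at high Myog, a log2 ratio of -0.73 (interval -0.78 to -0.68). Tcf12 differed least, from 360, 355, 361 and 368 to 309, 311, 304 and 310 CPM, a log2 ratio of -0.23 (interval -0.29 to -0.16). The 3 E-protein genes thus spread over more than 1 unit of log2.

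**Figure D1:**
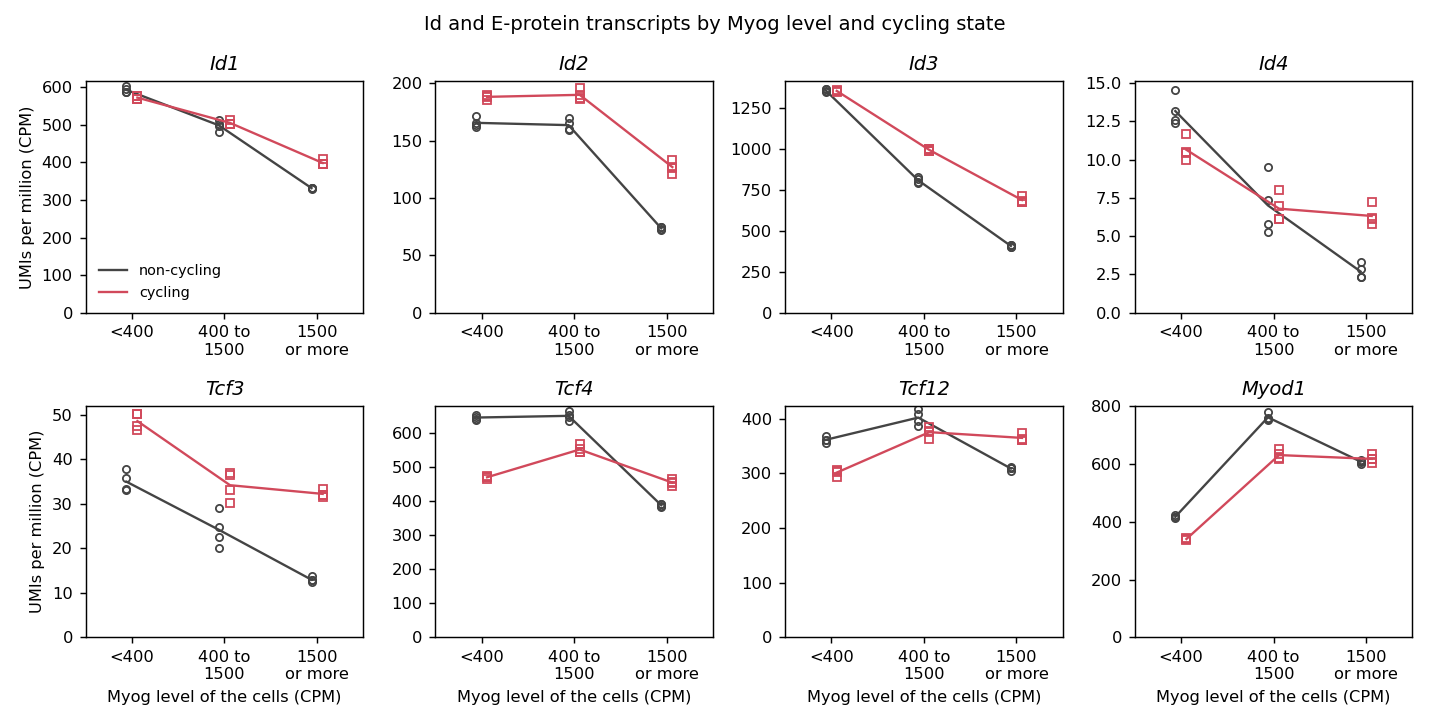
Levels (CPM, axes from 0) of the 7 members and of Myod1 by Myog group, in non-cycling (grey) and cycling (red) cells, with a marker for each of the 4 files and lines through their means. In non-cycling cells Id3 goes from 1358 to 407 CPM between the lowest and highest Myog group while Tcf12 goes from 361 to 309.

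In all, 4 of the 7 members (Id2, Id3, Id4 and Tcf3) were lower by 2-fold or more at high Myog, a threshold passed downward by 18.2% of the 11312 genes with at least 50 UMIs per file over both groups together. The median log2 ratio over all these genes was -0.29, with quartiles at -0.78 and 0.14, so more genes were lower than higher. With TMM factors the median became 0.09. The ratio of Id3 was then -1.33, that of Id4 -1.61, Tcf3 -0.98, Id2 -0.76, Id1 -0.43 and Tcf4 -0.33. Only Id3 and Id4 kept a 2-fold difference on that scale, a threshold passed downward by 11.3% of all genes, and Tcf12 changed sign to 0.18. The share of genes lower among all genes past 2-fold also shifted, from 69.4% with CPM to 48.4% with TMM factors.

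Markers that are also found in mesenchymal cells moved in the same direction. Summed pericyte or smooth muscle markers stood at 135 CPM in non-cycling cells with low Myog and at 9.92 with high Myog, and fibroblast markers at 212 and 49.3, of which Col3a1 made up most. Pdgfra, Dcn, Lum, Col1a1 and Kcnj8 were under 1 CPM over all cells. The part of these markers in the result was not tested.

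**Figure D2:**
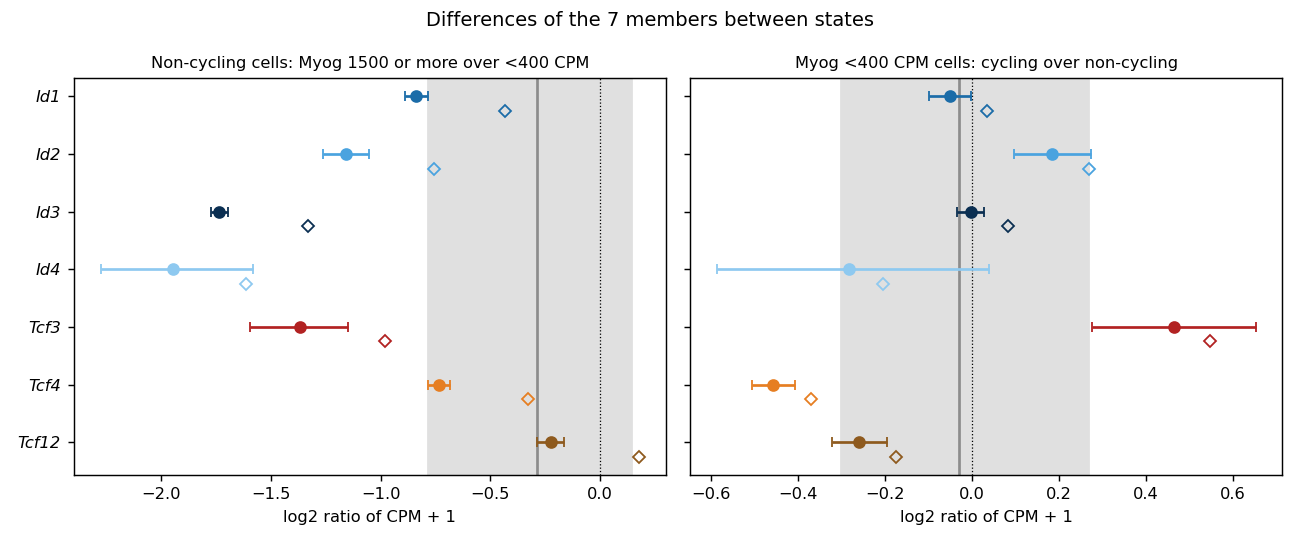
Log2 ratios (CPM plus 1) of the 7 members for high over low Myog in non-cycling cells (left) and for cycling over non-cycling cells at low Myog (right). Filled circles are CPM ratios with counting intervals, open diamonds the ratios with TMM factors, the grey line and band the median and quartiles of all genes under CPM. On the left all 4 Id genes, from Id1 (-0.84) to Id4 (-1.95), and Tcf3 (-1.37) lie below the band under CPM, and Tcf4 (-0.73) and Tcf12 (-0.23) lie inside it.

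The members did not differ at the same step. Between Myog below 400 and 400 to 1500 CPM, Id3 went from 1358 to 808 CPM (log2 ratio -0.75) and Id1 from 593 to 499 (-0.25). Id2 was at 165.5 and 163.5 CPM (log2 ratio -0.02, interval -0.17 to 0.13). Over this first step Tcf4 was at 644 and 649 CPM (0.01) and Tcf12 at 361 and 402 (0.15), while Tcf3 went from 35.0 to 24.2 (-0.53). Id4 went from 13.2 to 7.01 CPM, the largest difference of this step but on few UMIs (-0.85, interval -1.46 to -0.22). None of the 7 passed 2-fold downward, against 4.49% of all genes.

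From the middle to the high Myog group the largest differences of well-counted members were those of Id2 (log2 ratio -1.14) and Id3 (-0.99). The log2 ratio of Id4 was -1.10 (interval -1.61 to -0.49). Id2 and Id4 passed 2-fold, 2 of 7 members against 6.75% of all genes. Tcf4 (-0.74), Tcf3 (-0.84), Id1 (-0.59) and Tcf12 (-0.38) were also lower, beside a median of -0.20 over all genes. Id2 and Tcf4 therefore differed mainly at the second step, and Id3 at both.

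A finer division of the same cells showed where each difference fell. The 3016 non-cycling cells were ranked by Myog and divided into 12 equal groups of 251 or 252 cells. Id3 was at 1431 CPM in the first group, 1394 in the third, 1065 in the fourth, 650.5 in the fifth and 365 in the last. Most of its difference thus fell between the third and sixth groups, where the median Myog level of the cells went from 101 to 2286 CPM. Id2 was at 165 CPM in the first group, 169 in the fourth, 103.5 in the sixth and 56.1 in the last. Id1 went from 579 to 321 CPM between the first and last group.

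Tcf4 took another course. It was at 596 CPM in the first group, highest at 707 in the fourth, and lower at each later group, down to 205 in the last. Tcf12 was also highest in the fourth group, at 407 CPM, with 321 in the first and 255 in the last. Myod1 had its highest level in the same group, 723 CPM, against 347 in the first. Malat1, an abundant non-coding RNA retained in the nucleus, was at 11379 CPM in the first group and 7478 in the last. In between, Malat1 was at 12702 CPM in the third group, 10803 in the fourth and 12855 in the fifth. Tcf4 and Malat1 were thus both lowest in the cells with most Myog, but Malat1 was not highest where Tcf4 was. The part of nuclear RNA in the Tcf4 course was not tested at this resolution. Levels in these groups are CPM only. TMM factors, with which the Tcf4 ratio of high over low Myog was smaller in size, were not applied to them.

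**Figure D3:**
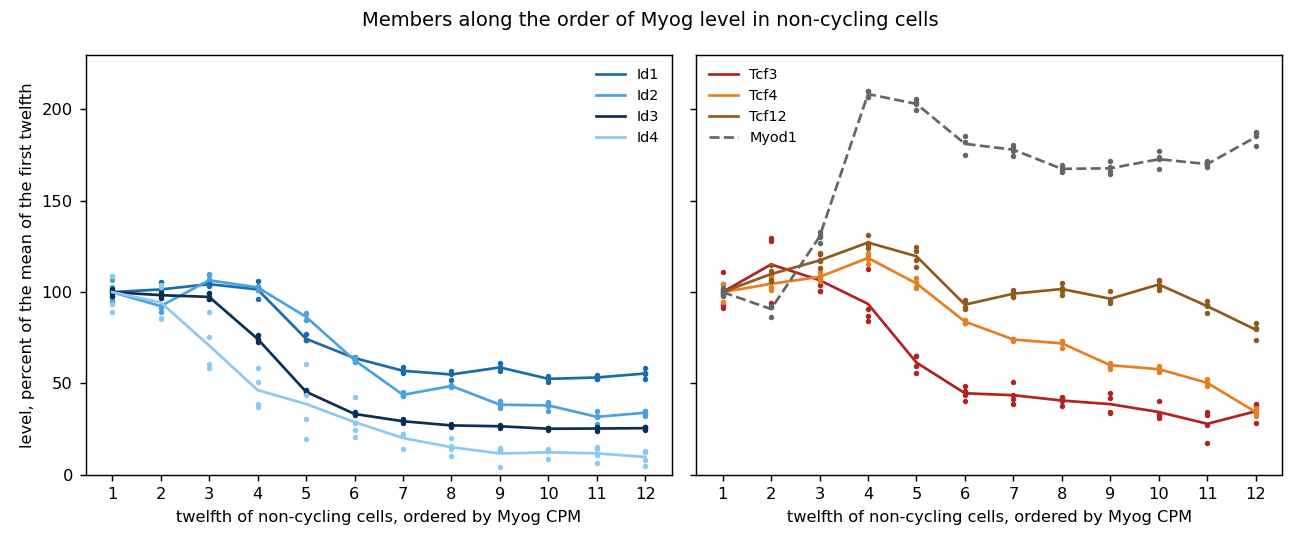
Levels of the Id genes (left) and of the E-protein genes and Myod1 (right) in 12 groups of non-cycling cells ordered by Myog, as percent of the mean in the first group, with dots for single files. Id3 drops between groups 3 and 6, from 1394 to 477 CPM, while Tcf4 and Tcf12 are highest in group 4.

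In cycling cells Id3 again differed most of the well-counted Id genes and Id1 least, each with a smaller log2 ratio than in non-cycling cells, a difference that was not tested. The high Myog group of cycling cells had less Myog, with 2808 CPM against 4194 in non-cycling cells. Between Myog below 400 CPM (1491 cells) and 1500 or more (366 cells), Id3 went from 1354 to 688 CPM (log2 ratio -0.98, interval -1.03 to -0.93). Id2 went from 188 to 127 CPM (-0.56) and Id1 from 573 to 399 (-0.52). Tcf3 went from 48.6 to 32.2 CPM (-0.58) and Id4 from 10.6 to 6.32 (-0.67). Tcf4 was at 469 and 454 CPM (-0.05, interval -0.11 to 0.01). Tcf12 was higher at high Myog (301 and 365 CPM, log2 ratio 0.27, interval 0.20 to 0.35). None of the 7 was lower by 2-fold, against 6.41% of all genes, and the median of all genes was -0.13. The ratio of Id to E-protein UMIs was 2.60, 1.77 and 1.43 in the 3 Myog groups of cycling cells, above that of non-cycling cells at each step. At low Myog that difference lay in the E-protein sum, 819 CPM in cycling and 1040.4 in non-cycling cells, while the Id sum was at 2126 and 2130.

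The second comparison asked how the members differ between cycling and non-cycling cells of the same Myog group. At Myog below 400 CPM, where Myog stood at 82.2 CPM in cycling and 87.5 in non-cycling cells, the Id genes hardly differed. Summed Id transcripts stood at 2126 CPM in cycling and 2130 in non-cycling cells (log2 ratio -0.00, interval -0.03 to 0.02). Id3 had 1354 and 1358 CPM, and Id1 had 573 and 593, a log2 ratio of -0.05 that became 0.03 with TMM factors. Id2 was slightly higher in cycling cells, with 188 against 165.5 CPM (log2 ratio 0.18, interval 0.10 to 0.27). Id4 had 10.6 and 13.2 CPM, the interval of its log2 ratio ran from -0.59 to 0.04, and a difference was not detectable at this depth.

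The E proteins split. Tcf3 was higher in cycling cells, with 47.5, 50.2, 50.1 and 46.5 CPM in replicates 1 to 4 against 37.8, 35.7, 33.4 and 33.0 in non-cycling cells. The log2 ratio was 0.46 (interval 0.28 to 0.65). Tcf4 was lower in cycling cells, with 471, 473, 469 and 463 CPM against 642, 651, 647 and 638, a log2 ratio of -0.46 (interval -0.50 to -0.41). Tcf12 was lower too (301 against 361 CPM, log2 ratio -0.26, interval -0.32 to -0.20). The directions of these 3 E-protein genes were the same with TMM factors, at 0.55, -0.37 and -0.18.

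None of the 7 members passed 2-fold in either direction, against 5.66% of all genes higher and 2.49% lower. Malat1 differed far more than any member, with 6324 CPM in cycling and 11998 in non-cycling cells (log2 ratio -0.92). Among cells with 5000 to 15000 CPM of Malat1, a window chosen after the data were seen, the log2 ratio of Tcf4 was -0.27, that of Tcf12 -0.12 and that of the E-protein sum -0.19. Over all cells of these groups the E-protein sum was at -0.34, so its difference was smaller inside this window. Leaving out only cells under 1000 CPM of Malat1 made it larger instead, as given in the last section. Malat1 levels of both groups inside the window are not given here, and the part of nuclear RNA was not tested.

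At Myog of 1500 CPM or more every member was higher in cycling cells, but these groups were not matched for Myog, which stood at 2808 CPM in cycling and 4194 in non-cycling cells. Within non-cycling cells of this range Id2, Id3, Tcf3 and Tcf4 were lower toward the highest Myog levels, and the part of Myog in the difference was not tested. Tcf3 had 32.2 against 12.9 CPM (log2 ratio 1.25, interval 0.98 to 1.53), and it was the 1 member of 7 past 2-fold, a threshold passed upward by 9.06% of all genes. Id2 was at 0.78, Id3 at 0.75, Id1 at 0.26, Tcf12 at 0.24 and Tcf4 at 0.23, beside a median of 0.16 over all genes. The log2 ratio of Id4 was 0.99 (interval 0.44 to 1.55).

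The third question was how the members relate to Myod1 in single cells of the same state. Since the cells had been sorted for high signal of the MyoD reporter, the relation is seen only within that gate. Cells of each state were divided into tertiles by Myod1 level, and the upper and lower tertiles were compared.

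Id1 and Id2 were higher where Myod1 was higher, in all 6 states. In non-cycling cells with Myog below 400 CPM the lower tertile (300 cells) had 70.6 CPM of Myod1 and the upper tertile (299 cells) 786. Id2 had 116, 115, 109 and 119 CPM in the lower tertile and 214, 205, 211 and 203 in the upper, a log2 ratio of 0.86 (interval 0.65 to 1.06). Id1 had 491, 501, 496 and 479 CPM in the lower tertile and 683, 660, 668 and 657 in the upper, a log2 ratio of 0.44 (interval 0.34 to 0.54).

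Id3 and Id4 did not share that direction. Id3 had 1443 CPM in the lower tertile and 1285 in the upper (log2 ratio -0.17, interval -0.23 to -0.10), and Id4 had 18.2 and 8.80 CPM (-0.996, interval -1.64 to -0.32). Tcf4 (-0.02) lay near the median of all genes, -0.03. Tcf12 was at 0.15 (interval 0.02 to 0.28), just above the upper quartile of all genes of 0.14, and Tcf3 at -0.31 with a wide interval (-0.72 to 0.10). The Id sum therefore differed little, by a log2 ratio of 0.07, as did the E-protein sum, by 0.03. The upper tertile had more UMIs per cell, with a median of 10000.2 against 7565, and more Myog, with 127 CPM against 50.7 (log2 ratio 1.31). In cycling cells with low Myog the tertiles had 114 and 49.7 CPM of Myog (1.18), and in the 4 other states Myog differed by a log2 ratio between -0.06 and 0.10. The part of Myog in these differences was not tested.

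In cycling cells with Myog below 400 CPM the pattern was alike, with log2 ratios of 0.73 for Id2, 0.45 for Id1, -0.01 for Id3 and -0.53 for Id4. Non-cycling cells with Myog of 1500 CPM or more differed from this in Id3, which was higher with Myod1 (355 and 495 CPM, log2 ratio 0.48, interval 0.41 to 0.55). Id2 there had a log2 ratio of 1.23 (46.0 and 110 CPM) and Id1 one of 0.56. Id3 was also higher with Myod1 in the other 3 states with 400 CPM or more of Myog, by 0.19 to 0.33. The median of all genes in that state was 0.13. Over all 6 states the log2 ratio of Id2 lay between 0.73 and 1.23 and that of Id1 between 0.24 and 0.56.

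**Figure D4:**
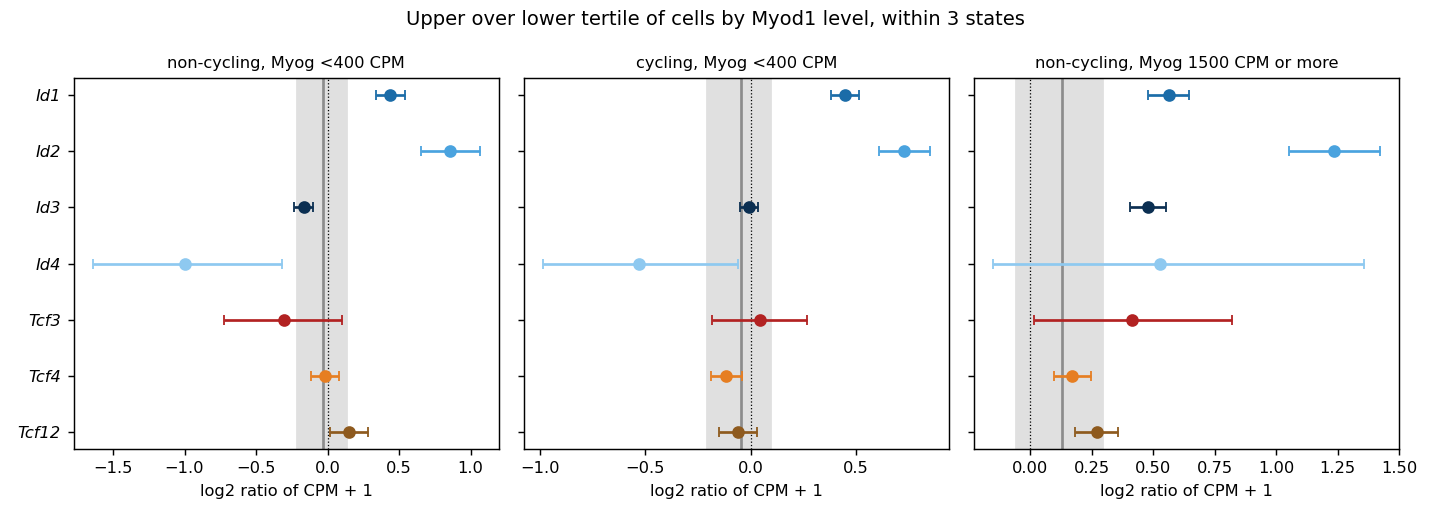
Log2 ratios (CPM plus 1) of the upper over the lower tertile of cells by Myod1 level within 3 states, with counting intervals. The grey line and band are the median and quartiles of all genes. Id1 and Id2 lie above the band in each panel, while Id3 lies above it only in cells with 1500 CPM or more of Myog.

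Rank correlations over cells gave a similar picture and are a description only, since the cells share libraries and depth. Each gene of a pair was read in other files than its partner. Over 899 non-cycling cells with low Myog, Spearman's rho with Myod1 was 0.25 for Id1, 0.21 for Id2, -0.07 for Id3 and -0.09 for Id4. A gene's level in 1 pair of files correlated with its own level in the other pair by 0.76 (Id1), 0.69 (Id2) and 0.81 (Id3). These values give the scale on which to read the correlations with Myod1. The files may not hold wholly separate molecules (dispersion ratio 0.857 to 0.867, described below), which may raise such values. Tcf4 and Tcf12 correlated with each other by 0.54, and with Malat1 by 0.52 and 0.46. No pair of Id genes exceeded the 0.24 of Id1 and Id3.

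Detection at equal depth placed Id1 and Id2 on the same side. In non-cycling cells with low Myog, Id2 was detected in 49.1% of cells with a Myod1 UMI in another file and in 39.1% of those without. For Id1 the shares were 90.5% and 82.5%. Id4 was detected in 5.17% and 8.70%, and Tcf4 in 85.8% and 86.3%. Thinning left out 119 of the 899 cells.

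Myog was then compared within ranges of Myod1 between cells that differed in their Id transcripts. Non-cycling cells were divided into tertiles of Myod1 and, within each, into tertiles of the summed Id level, with 335 or 336 cells in each of the 9 groups. This regroups cells of the first comparison and adds no independent evidence to it. In the lower Myod1 tertile, Myog stood at 3573 CPM in cells with low Id and at 72.7 with high Id, a log2 ratio of -5.60. Myod1 was not equal in these cells, with 261 CPM at low Id and 184 at high Id. In the middle tertile it stood at 4514 and 1580 CPM (-1.51, interval -1.56 to -1.47), with Myod1 at 529 and 544. In the upper tertile the values were 4404 and 1194 CPM (-1.88), with Myod1 at 896 and 1013. The cells with little Myod1 and high Id transcripts thus had the lowest Myog, with 97.6% of them below 400 CPM of Myog, against 5.95% of cells with little Myod1 and low Id.

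The E-protein sum split cells less. Myog was lower in its upper tertile as well, with log2 ratios of -1.59, -0.98 and -1.07 in the 3 Myod1 tertiles. Malat1 differed with this split, from 8483 CPM in the lower to 12515 in the upper E-protein tertile at middle Myod1. It differed little with the Id split, with 10795 and 10257 CPM. The part of nuclear RNA in the E-protein split was not tested.

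**Figure D5:**
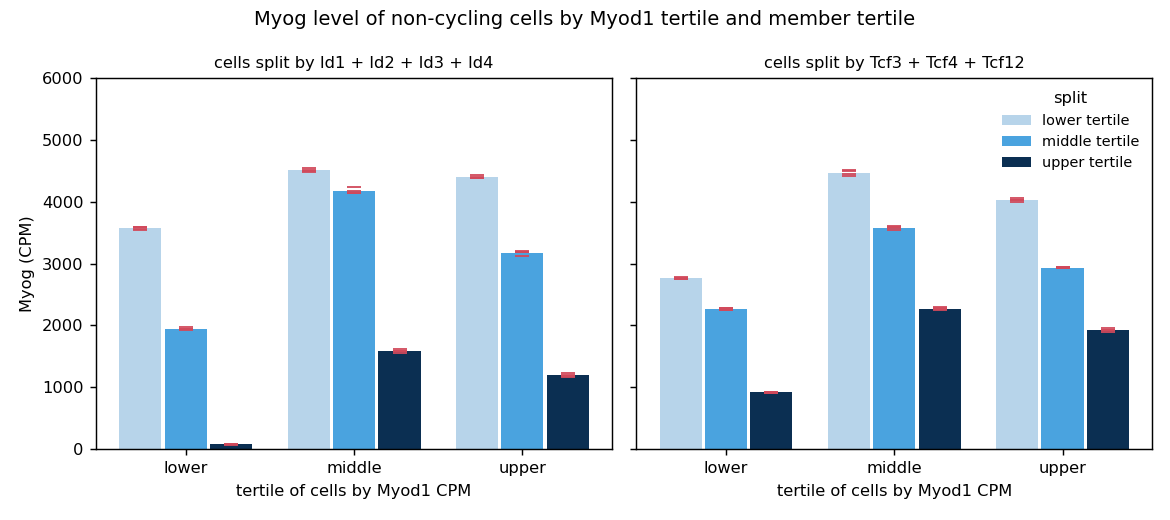
Myog level (CPM, axis from 0) of non-cycling cells in 9 groups, by tertile of Myod1 level and by tertile of summed Id (left) or E-protein (right) transcripts; red ticks are single files. Myog is lower in the high than in the low Id tertile within each Myod1 tertile, from 3573 to 72.7 CPM where Myod1 is low.

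Genes of the BMP pathway were examined beside the Id genes, in non-cycling cells at high against low Myog. Of all genes, 8.02% were higher and 18.2% lower by 2-fold in this comparison, or 12.05% and 11.3% with TMM factors. Both measured feedback genes, which encode inhibitory Smads and are themselves BMP targets, were lower by 2-fold: Smad7 had 98.4 CPM at low and 32.5 at high Myog (log2 ratio -1.57), and Smad6 had 46.6 and 16.9 (-1.41). They remained past 2-fold with TMM factors, at -1.17 and -1.02. None of the 5 measured receptors passed 2-fold, from Acvr2a at -0.69 to Bmpr1a at 0.25, with a median of -0.44.

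Antagonists bind BMPs or related ligands outside the cell, and 5 were measured. Fst, encoding follistatin, had 15.3 CPM at low and 105.5 at high Myog (2.71). Chrd, encoding chordin, had 1.19 and 8.74 CPM (2.17), but with 10 UMIs per file at low and 187.75 at high Myog it reached the count minimum only through the group where it was high. Nog, encoding noggin, was lower, at 6.93 and 2.40 CPM (-1.22), but did not pass 2-fold with TMM factors (-0.90). Of the 4 Smads that carry the signal, Smad9 alone passed 2-fold (-1.24, and -0.92 with TMM factors), and Smad1 was at 0.54. Of the 7 ligands only Gdf6 reached 50 UMIs per file, at 8.81 and 9.23 CPM (0.06). Bmp6 missed that count, with 6.39 CPM at low and 0.197 at high Myog.

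Between cycling and non-cycling cells at low Myog, 2 ligands were measured and both were lower in cycling cells, Bmp6 with 2.17 against 6.39 CPM (-1.21) and Gdf6 with 3.40 against 8.81 (-1.16), where 2.49% of all genes were lower by 2-fold. No receptor, antagonist, signal-carrying Smad or feedback gene passed 2-fold in that comparison.

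Other bHLH genes stood around the members as follows, again at high against low Myog in non-cycling cells. Of the myogenic factors other than Myog, Myf6 was higher (3.42 and 13.0 CPM, 1.67, with 28.75 UMIs per file at low Myog), Myf5 lower (109 and 10.8 CPM, -3.23), and Myod1 was at 418 and 609 CPM (0.54). Of 11 measured other bHLH and E-box factors, 3 were higher by 2-fold and 7 lower, beside 8.02% and 18.2% of all genes. With TMM factors 3 were higher and 4 lower, beside 12.05% and 11.3% of all genes. The higher ones were Zeb1 (1.97), Hes6 (1.71) and Scx (1.03). Among the lower ones were the Notch targets Heyl (-3.18), Hes1 (-2.80) and Hey1 (-2.07) and the E-box repressor Snai2 (-2.94). None of 5 measured immediate early genes, which mark handling stress among other stimuli, passed 2-fold, with a median of -0.21. They were less even through the middle Myog group. From the low to the middle group 2 of 5 were lower by 2-fold (list median -0.47), beside 4.49% of all genes. From the middle to the high group 1 of 5 was higher by 2-fold (list median 0.26), beside 415 of 10587 genes.

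Genes with the pattern most like that of a member were sought over the 9 combinations of Myog and cycling groups, among 6544 genes whose log2 level ranged by at least 1. Id3 was most like Csf1, which encodes a macrophage growth factor (Pearson r 0.999, from 257 CPM in non-cycling low Myog cells to 16.5 in high Myog cells), and 382 genes exceeded 0.95. Id4 was most like Lifr, a cytokine receptor gene (r 0.987), and Tcf3 most like Cbx6, a Polycomb gene (r 0.988). Id2 was most like Dleu2, a non-coding host gene of microRNAs (r 0.987), and had only 25 genes above 0.95. Id1, Tcf4 and Tcf12 ranged by less than 1 and had no match by this rule. The 9 points share libraries, and the count of close matches shows that the Id3 pattern was a common one.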

How the data were processed

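For every gene and barcode the authors deposited whole-number UMI counts, and the version of Cell Ranger in the file headers is 7.1.0. The submitters' processing notes name Cell Ranger 3.1.0 and the builds mm10 and GRCm39, so the build behind the counts is uncertain. Gene positions were looked up by Ensembl identifier in GENCODE M21, which uses GRCm38 (32235 of 32285, 99.85%). Replicate numbers come from the labels. The files shared cells, with a chi-square per degree of freedom of 0.903 to 1.03 and a dispersion ratio of single-cell counts of 0.857 to 0.867, where separate molecules give 1. They were therefore averaged as 1 sample.

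Log2 ratios were taken on CPM plus 1 (Python 3.11.15, numpy 2.4.6, scipy 1.17.1) for genes with at least 50 UMIs per file summed over the 2 groups compared. TMM factors came from edgeR 4.0.16, and median-ratio size factors were another scaling. Alternatives were other cell filters, cycling and Myog bounds, pseudocounts and depths, and leaving out each file. No doublet caller was run, and leaving out the 5% of cells with most UMIs was an alternative. The calculations were tested on simulated data. The 7 members were named in full and listed genes by the largest ratios, up to 4 per list, with like genes as the 3 highest correlations. Where fewer than the rule allows are named, the text is shortened; Bmpr1a, Smad1, Hes6, Scx and Zeb1 were named in addition after their values were seen. Members and lists were chosen with earlier results of these data known. The RefSeq table of promoters was used for sequences. Protein sequences were not used here.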

Additional observations from a re-analysis of the deposited data

Results flagged for a closer look

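The 56 values compared over the 4 files were levels and shares of cells at equal depth. In 2 of them, both levels, a file stood far from the other 3, where chance alone gives about 5% of such cases. Both were in cycling cells with 1500 CPM or more of Myog. Id1 was at 409 CPM in replicate 4 and at 395 to 396 in the other files, and Tcf12 was at 374 CPM in replicate 3 and at 360.5 to 363 in the others. Each value lay inside the counting interval of its mean, 382 to 416 CPM for Id1 and 349 to 381 for Tcf12.

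In 5 of 14 pairs of effects, all files showed one direction in the first setting and the other direction in the second. These differences were not tested, since the files hold the same cells. The log2 ratio of cycling over non-cycling cells was above 0 at Myog of 1500 CPM or more and below 0 at Myog under 400 for 4 genes. The values differed by 0.316 for Id1 (0.26 and -0.05), by 1.28 for Id4 (0.99 and -0.28), by 0.684 for Tcf4 (0.23 and -0.46) and by 0.50 for Tcf12 (0.24 and -0.26). For Tcf12 the log2 ratio of high over low Myog was 0.27 in cycling and -0.23 in non-cycling cells, which is the same difference of 0.50 seen from the other side. With TMM factors the ratio of Id1 at low Myog was 0.03 and that of Tcf12 in non-cycling cells 0.18, so neither of these 2 stayed below 0 with that scaling. Ratios of cycling over non-cycling cells at high Myog, and of high over low Myog in cycling cells, were computed with CPM only. Whether the other opposite signs depend on the scaling is therefore not known. The median of cycling over non-cycling cells over all genes was 0.16 at high and -0.03 at low Myog. The interval of Id4 at low Myog, given above, held 0.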

How the results depend on the processing

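Of 146 comparisons of the main values with an alternative, 113 stayed within the counting interval (counts within 1.5 times) and 33 moved beyond it, and 0 reversed. A change of sign was called reversed only where the main interval excluded 0, and never for counts. The Id sum of cycling over non-cycling cells, whose interval held 0, changed sign with both scalings below and was called moved. Of 385 for single members, 330 stayed, 51 moved and 4 reversed. Except for scaling, which shifts all genes alike, the cause was not tested.

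With TMM and median-ratio factors respectively, the Id sum at high over low Myog was -0.98 and -0.96 (main -1.38), the E-protein sum -0.15 and -0.13 (main -0.55), and members past 2-fold 2 and 2 (main 4). Tcf12 reversed there, to 0.18 and 0.20. Of all genes, 11.3% and 11.1% were lower by 2-fold with these factors (main 18.2%). For cycling over non-cycling cells the Id sum was 0.083 and 0.098 (main -0.00), the E-protein sum -0.26 and -0.24 (main -0.34), and Id1 reversed to 0.034 and 0.049. By Myod1 tertile the Id sum was 0.14 and 0.15 (main 0.07) and the E-protein sum 0.11 with median-ratio factors (main 0.03). Myog over Id tertiles at middle Myod1 was -1.74 and -1.75 (main -1.51).

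For high over low Myog, the Id sum was -1.35 with the stricter cell filter (at least 2000 genes, under 5% mitochondrial UMIs), -1.41 in the Malat1 window chosen after the data were seen, and -1.51 with bounds moved to 200, 3000 and 300 CPM. The E-protein sum was -0.61 as a mean of single-cell CPM, -0.48 with the stricter filter, -0.63 without cells under 1000 CPM of Malat1 and -0.62 with moved bounds. For cycling over non-cycling cells the E-protein sum was -0.39 as a mean of single-cell CPM, -0.38 without cells under 1000 CPM of Malat1, -0.19 in the Malat1 window and -0.29 with moved bounds. Myog over Id tertiles was -1.73 with the stricter filter, -1.33 without cells under 1000 CPM of Malat1, -1.29 in the Malat1 window, -1.68 with bins and values from separate files, and -1.60 to -1.46 when 1 file was left out.

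No paired analysis was possible because there is 1 group. The number of animals behind the cells is not given, and no value here measures variation between animals or cultures.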
